A study of Mus musculus with 4 samples.

Results

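The neutrophil genes described here are 33 genes, most of which code for the contents of neutrophil granules or mark the last steps of neutrophil maturation. Exceptions include Ms4a3, a membrane protein of granulocyte precursors, Cebpe, a transcription factor, and Mcpt8, a protease of basophils. All 33 were taken from the array by gene name, and the brightest probe well above background on at least 1 array stood for each gene. Of the 33, 31 were measured in this way and 27 were well above background on all 4 arrays, against 21942 and 18248 of the 30028 gene names on the array. Olfm4, a secondary granule glycoprotein, and Stfa1, a cysteine protease inhibitor, were not well above background on any array. Mmp9, Fcnb, Itgb2l and Mcpt8 were above it on some arrays only.

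The arrays held RNA of whole cochleae of 5-week-old mice of the strain given as B6J (C57BL/6J), in 4 groups of 8 (4 females and 4 males, pooled), with 1 array per group and all arrays on 1 slide. Whether the 8 are cochleae or mice is not clear from the labels and methods. The groups were untreated wild-type mice, wild-type mice given diphtheria toxin (DT) at 50 μg/kg and dissected 7 days later, untreated Prestin-hDTR mice, and Prestin-hDTR mice given DT in the same way. Prestin-hDTR mice, named OHC-TRECK in the labels, are 1 transgenic line in which the promoter of prestin, the motor protein of outer hair cells (OHCs), drives a human DT receptor, so that DT is meant to kill these cells. As a check of the labels, 4 of 6 OHC genes were 2-fold or more lower in DT-treated than in untreated Prestin-hDTR mice, against 1.52% of all genes. Their median log2 ratio was -2.57. Prestin itself (Slc26a5) had a ratio of -0.39. It was not well above background on all 4 arrays, so its change may be larger than this value and is not ranked with the others. All 13 genes of cochlear tissue were measured. Intensities were scaled to the 75th percentile of each array, and values below are log2 of that normalized signal. No group has a second array, so that no difference has a replicate check and no p-value is given. Between 62.2% and 70.6% of probes were well above background. The log2 ratio of a gene varied by 0.101 (SD) from repeated spots alone, which is a spread within an array and not between mice.

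Neutrophils are made in bone marrow, and the cochlea lies in the temporal bone. Their granules are filled in order: the primary granules with myeloperoxidase and serine proteases at the promyelocyte stage, then the secondary and tertiary granules with lactoferrin, cathelicidin and matrix proteases at the myelocyte and metamyelocyte stages. Genes of the last group, such as the calgranulins and the receptors for chemoattractants, are transcribed in band and segmented cells. Transcripts of the first 2 kinds of granule are thus known from precursors in marrow more than from neutrophils in blood. In a whole-tissue sample, fewer cells of a type and less RNA per cell cannot be told apart.

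Promoters of granule genes are bound by C/EBP factors and PU.1 in myeloid cells. The letters of both factors were searched on both strands in the RefSeq promoters of build GRCm38.p6, from 250 bases before to 50 bases after the start, for the 29 members that matched by symbol. The C/EBP letters TTGCNNAA were found in 10 of the 29 (34.48%), against 12.2% of 27025 genes. The PU.1 letters GAGGAAGT were found in 9 of the 29 (31.03%), against 3.69% of all genes. A match is a stretch of letters and not a measured site. The 150 bases before the start are given for Elane and Prtn3, neighbours on chromosome 10 that both hold the PU.1 letters, and for Ltf and Ngp, which hold the C/EBP letters. Capitals mark the matches. The windows are chr10:79886162-79886311 (plus strand) for Elane, chr10:79879517-79879666 (plus strand) for Prtn3, chr9:111019142-111019291 (plus strand) for Ltf and chr9:110419658-110419807 (plus strand) for Ngp.
Elane: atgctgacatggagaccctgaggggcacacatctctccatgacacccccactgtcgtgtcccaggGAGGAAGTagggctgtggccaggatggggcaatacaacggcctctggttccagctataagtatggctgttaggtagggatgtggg
Prtn3: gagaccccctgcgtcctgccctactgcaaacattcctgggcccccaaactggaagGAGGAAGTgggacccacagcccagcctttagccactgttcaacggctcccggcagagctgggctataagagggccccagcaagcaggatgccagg
Ltf: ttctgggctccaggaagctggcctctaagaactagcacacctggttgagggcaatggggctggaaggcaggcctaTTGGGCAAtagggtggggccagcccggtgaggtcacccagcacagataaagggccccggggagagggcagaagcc
Ngp: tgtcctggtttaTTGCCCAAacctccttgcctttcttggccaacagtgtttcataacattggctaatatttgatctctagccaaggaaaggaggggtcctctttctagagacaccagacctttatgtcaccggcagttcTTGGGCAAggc
The match began 85 bases before the start in Elane and 95 bases before it in Prtn3. In Ltf it lay 75 bases before the start, and Ngp held it at 138 and at 11 bases before the start. No relation between the letters and the levels on the arrays was tested, and members without a match, such as Camp, Ctsg and Pglyrp1, had the same order of the arrays as these 4 genes, given next, while Lcn2, Mmp8, Ly6g, Retnlg and Ltb4r1, with a match, did not.

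The members did not have the same level on the 4 arrays, and their order was mostly the same. Of the 27 members well above background on all arrays, 23 were lowest in untreated Prestin-hDTR mice, where 17.3% of all such genes were lowest. In DT-treated wild-type mice 20 of the 27 were highest, against 15.8% of all genes. The full order from DT-treated wild-type through untreated wild-type and DT-treated Prestin-hDTR to untreated Prestin-hDTR mice held for 14 of the 27, against 1.66% of all genes. Those 14 were all 5 primary granule genes (Mpo, Elane, Prtn3, Ctsg and Ms4a3), the secondary granule genes Ltf, Camp, Ngp, Cebpe, Hp and Pglyrp1, and S100a8, S100a9 and Stfa2. Cd177, Ly6g, Stfa3 and Serpinb1a were instead highest in DT-treated Prestin-hDTR mice. The plot of deviations by array shows that the untreated Prestin-hDTR array lay below the mean for every primary and secondary granule gene.

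**Figure D1:**
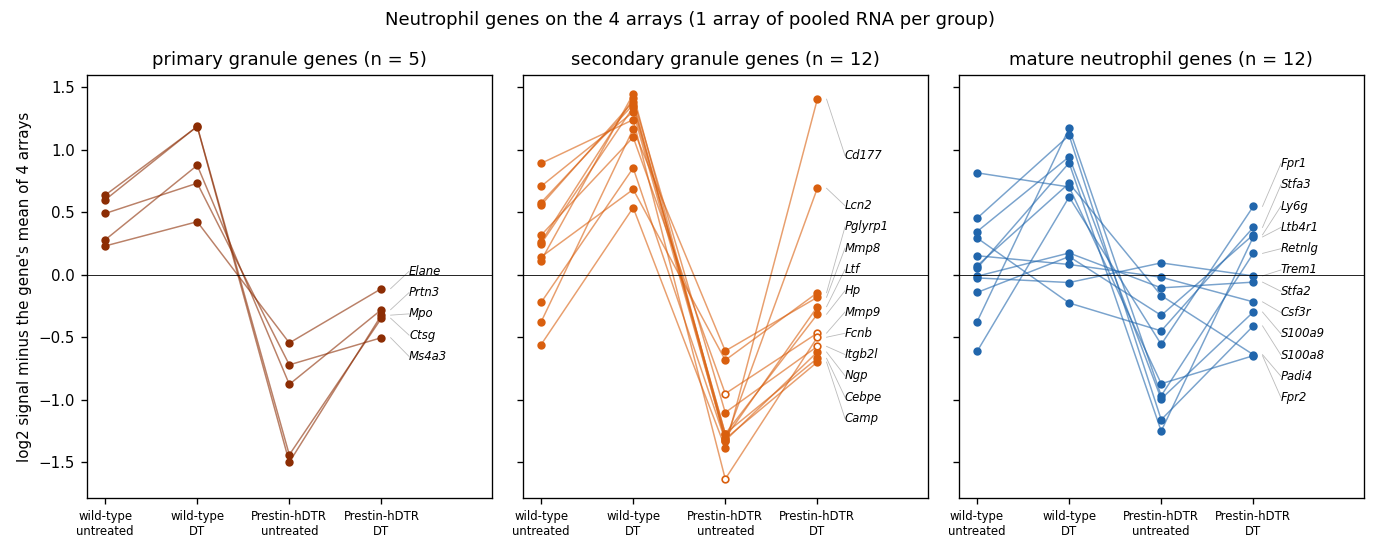
Log2 signal of each neutrophil gene minus its own mean over the 4 arrays (vertical axis) in the 4 groups (horizontal axis), for 5 primary granule, 12 secondary granule and 12 mature neutrophil genes. Each line is 1 gene, open points are arrays on which it was not well above background, and there are no error bars because each group has 1 array. Primary granule genes peak in DT-treated wild-type mice and are lowest in untreated Prestin-hDTR mice, whereas several mature genes are flat.

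Untreated Prestin-hDTR mice were compared with untreated wild-type mice first, since neither had received DT. In this comparison 18 of 31 members were 2-fold or more lower and 0 were higher, against 2.48% and 1.05% of all 21118 genes compared. Of these 18, Mmp9, Fcnb and Mcpt8 entered only because they were above background in wild-type mice, and their folds are lower bounds. Among the 27 members above background on all arrays 14 were 2-fold or more lower, against 0.537% of 18248 genes. The median log2 ratio was -1.21 over 31 members, or 2.31-fold lower, and -0.01 over all genes. Only Fpr1 and Trem1 were not lower in sign.

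The genotypes were compared again after DT, with no array in common with the first. Again 18 of 31 members were 2-fold or more lower and 0 higher, against 1.95% and 1.52% of all 19513 genes, and the median log2 ratio was -1.23 with 0.01 over all genes. Of the 27 members on all arrays 15 were 2-fold or more lower, against 1.12%. Of the 27, 12 were lower in both comparisons, against 0.214% of all 18248 genes. They were Mpo, Ctsg, Prtn3, Ms4a3, Ltf, Camp, Ngp, Cebpe, Hp, S100a8, S100a9 and Fpr2. The 12 are 85.7% of the members lower in the first comparison and 80.0% of those in the second. Among all 18248 genes, 98 were lower in the first, 204 in the second and 39 in both.

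Within each genotype the medians of the members were above 0 after DT, and a minority passed 2-fold. In wild-type mice 8 of 31 were 2-fold or more higher and 0 lower, against 1.58% and 1.14% of 20172 genes, with a median log2 ratio of 0.60. In Prestin-hDTR mice 8 of 27 were 2-fold or more higher and 0 lower, against 2.9% and 1.52% of 20006 genes, with a median of 0.64. All genes had medians of -0.04 and -0.01. By sign alone, 26 of 31 were higher in wild-type mice, where Stfa3, Serpinb1a, Fpr2, Csf3r and Trem1 were not, and 24 of 27 in Prestin-hDTR mice, where Padi4, Csf3r and Trem1 were not. On the 27 members above background on all arrays, 7 in wild-type and 8 in Prestin-hDTR mice were higher, against 0.68% and 1.37% of 18248 genes. Cd177, Fpr1, Lcn2, Ltf and Retnlg were higher in both, against 0.214% of all genes that were. The ratio after DT in Prestin-hDTR mice minus that in wild-type mice had a median of 0.001 over the 27, with a range from -1.13 for Padi4 to 1.69 for Cd177, and 14 of the 27 had the higher ratio in Prestin-hDTR mice. A comparison of DT with no DT shares an array with each comparison of the genotypes, so that these counts are not independent of those above.

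**Figure D2:**
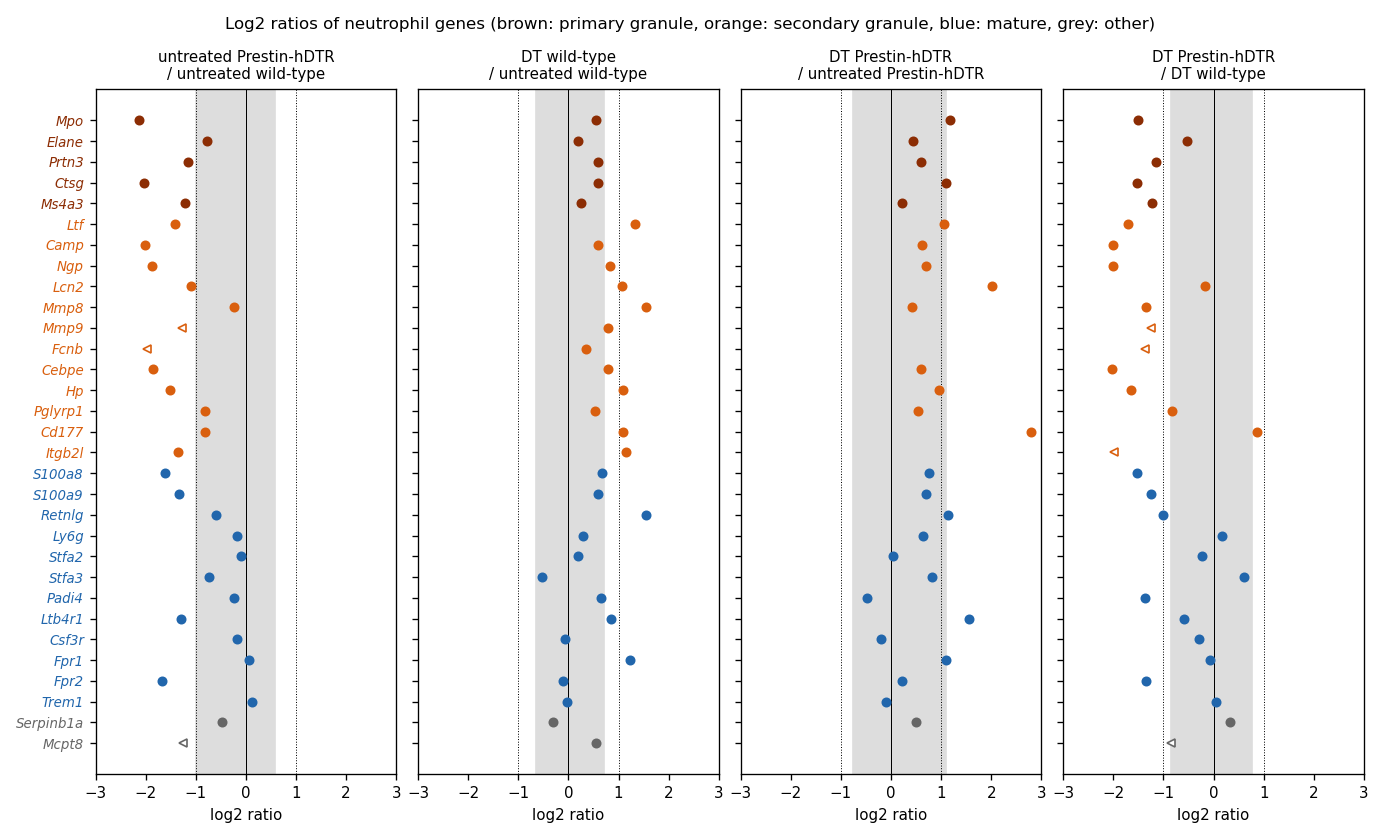
Log2 ratio of each measured neutrophil gene (rows) in 4 comparisons of 2 arrays (panels), coloured by group, where triangles are lower bounds for genes not well above background on 1 of the 2 arrays. The grey band holds the middle 95% of all genes compared and the dotted lines mark 2-fold. Most primary and secondary granule genes lie to the left of the band in both comparisons of Prestin-hDTR with wild-type mice, and Cd177 and Lcn2 lie farthest to the right after DT in Prestin-hDTR mice.

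The primary granule genes were lower in Prestin-hDTR mice, whether or not DT was given, and had medians of -1.21 without and -1.23 with DT. Mpo codes for myeloperoxidase, which makes hypochlorous acid, and its log2 signal was 0.47 in wild-type mice without and 1.02 with DT, and -1.66 in Prestin-hDTR mice without and -0.49 with DT. This order of the arrays is kept in all sentences that give 4 values. Both wild-type arrays were thus above both Prestin-hDTR arrays, 4.39-fold without DT and 2.84-fold with DT. A second probe of Mpo gave log2 ratios of -2.29 and -1.61 in the same comparisons. After DT, Mpo was 1.46-fold higher in wild-type and 2.26-fold higher in Prestin-hDTR mice. Ctsg, the serine protease cathepsin G, was at -1.02, -0.44, -3.06 and -1.97. It was 4.11-fold lower in untreated and 2.90-fold lower in DT-treated Prestin-hDTR than in the wild-type mice. It rose 2.13-fold after DT in Prestin-hDTR mice and by less than 2-fold in wild-type mice.

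Elane and Prtn3, which code for neutrophil elastase and proteinase 3, lie 6.2 kb apart on chromosome 10 of build mm9 and differed in the size of the change. Prtn3 was at -4.10, -3.50, -5.25 and -4.65, which is 2.23-fold lower in Prestin-hDTR mice both without and with DT. Elane was at -0.40, -0.20, -1.17 and -0.74 and differed by 1.71-fold and 1.45-fold, short of 2-fold. Both had the same order of arrays. Ms4a3, a membrane protein of granulocyte precursors, was at -2.96, -2.72, -4.17 and -3.95. It was 2.31-fold and 2.35-fold lower in Prestin-hDTR mice, and after DT it was only 1.18-fold and 1.16-fold higher.

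Of the 3 groups of members, secondary granule genes had the lowest medians between the genotypes, -1.39 without DT and -1.51 with DT over 12 genes. In each comparison 9 of the 12 were 2-fold or more lower, against 2.48% and 1.95% of all genes, but only 7 and 6 of the 9 were measured on both arrays. The others were lower bounds, for Mmp9 and Fcnb in both and for Itgb2l with DT, and these genes entered through the wild-type arrays on which they were higher. In wild-type mice 6 of the 12 were 2-fold or more higher after DT, against 1.58% of all genes, with a median of 0.95. In Prestin-hDTR mice 3 of the 9 compared were higher, against 2.9%, with a median of 0.71. Of these genes, Mmp8, Camp, Ngp and Ltf lie on chromosome 9. Camp, the precursor of the antimicrobial peptide cathelicidin, was at 2.22, 2.82, 0.21 and 0.82. It was 4.05-fold lower in untreated and 4.00-fold lower in DT-treated Prestin-hDTR mice, and its second probe gave log2 ratios of -1.88 and -2.02. Ngp, the neutrophilic granule protein, was at -0.84, -0.01, -2.72 and -2.02, which is 3.69-fold and 4.01-fold lower. Cebpe, the C/EBP factor that secondary granule genes depend on, was at -2.13, -1.35, -3.98 and -3.38. It was 3.60-fold and 4.08-fold lower in Prestin-hDTR mice, and of the members measured on both arrays it was the furthest below DT-treated wild-type mice. The values after DT were 1.72-fold higher in wild-type and 1.52-fold higher in Prestin-hDTR mice.

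Ltf codes for the iron-binding protein lactoferrin, and was at -0.12, 1.22, -1.53 and -0.48. It was 2.67-fold and 3.25-fold lower in Prestin-hDTR mice. After DT it was higher past 2-fold in both genotypes, 2.52-fold in wild-type and 2.07-fold in Prestin-hDTR mice. Hp, the haemoglobin-binding protein haptoglobin, was at -0.67, 0.42, -2.19 and -1.23 and was 2.87-fold and 3.15-fold lower. Its ratio after DT was 2.13-fold in wild-type and 1.94-fold in Prestin-hDTR mice. Pglyrp1, a protein that binds bacterial peptidoglycan, kept the order of the arrays without reaching 2-fold, and was 1.77-fold lower in both comparisons of the genotypes and 1.45-fold higher after DT in both genotypes.

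Lcn2 and Cd177 departed from the other secondary granule genes in DT-treated Prestin-hDTR mice. Lcn2 codes for lipocalin 2, which binds bacterial siderophores and is also made by epithelial cells. It was at -0.25, 0.83, -1.35 and 0.67, so that it was 2.15-fold lower in untreated Prestin-hDTR mice, 4.05-fold higher after DT in these mice, and within 1.12-fold between the DT-treated groups. Cd177, a surface glycoprotein of neutrophils, was at -5.54, -4.45, -6.37 and -3.58, where its signal in untreated Prestin-hDTR mice was close to the lowest signal well above background on that array, -6.39. Its ratio after DT was 2.14-fold in wild-type and 6.90-fold in Prestin-hDTR mice, the largest of the members in the latter, and the DT-treated Prestin-hDTR array was 1.82-fold above the DT-treated wild-type array. Whether the ratio after DT differs between the genotypes was not tested, since each ratio rests on 2 arrays.

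Mmp8, the neutrophil collagenase, stood out in 1 group. It was at -3.85, -2.31, -4.08 and -3.65, which is 2.91-fold higher after DT in wild-type mice and 1.35-fold higher after DT in Prestin-hDTR mice. The untreated groups were within 1.17-fold, and the DT-treated groups differed by 2.54-fold. Itgb2l, an integrin chain, was at -4.03, -2.88 and -5.39 on the first 3 arrays and not well above background on the fourth. It was 2.58-fold lower in untreated Prestin-hDTR mice, at least 3.95-fold lower in DT-treated Prestin-hDTR than in DT-treated wild-type mice, and 2.21-fold higher after DT in wild-type mice. Fcnb, the lectin ficolin B, was at -4.42 and -4.07 in wild-type mice and not well above background in Prestin-hDTR mice. The difference was at least 3.94-fold without DT and at least 2.60-fold with DT.

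Mmp9, the gelatinase of tertiary granules, has 10 spots on each array and so shows how well 1 array measures 1 gene. The mean log2 signal of the spots was -4.99 ± 0.21 (SD of 10 spots) in wild-type mice without DT and -4.20 ± 0.13 with DT, with 10 of 10 spots well above background on each. In Prestin-hDTR mice it was -6.32 ± 0.51 without DT, with 4 of 10 spots above background, and -5.79 ± 0.32 with DT, with 0 of 10. The spots of the wild-type arrays did not overlap each other. The highest spot in untreated Prestin-hDTR mice, at -5.34, lay just below the lowest in untreated wild-type mice, at -5.33. Mmp9 was at least 2.41-fold lower in untreated and at least 2.38-fold lower in DT-treated Prestin-hDTR mice, and 1.72-fold higher after DT in wild-type mice. Spots are repeats on 1 array and not mice.

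**Figure D3:**
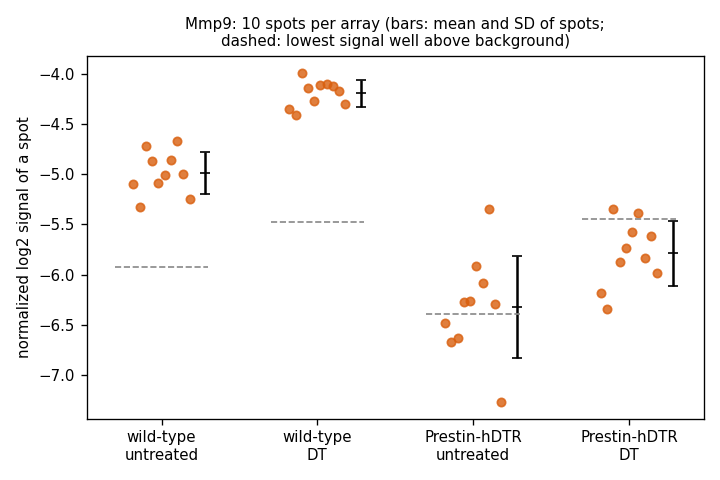
Normalized log2 signal of the 10 spots of Mmp9 (vertical axis) on each of the 4 arrays (horizontal axis), where bars are the mean and SD of the spots and dashed lines the lowest signal well above background on that array. All spots in wild-type mice lie above their line, and all spots in DT-treated wild-type mice lie above those in untreated wild-type mice.

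Mature neutrophil genes were divided among themselves. Over 12 genes the medians between the genotypes were -0.41 without and -0.45 with DT, with 4 and 5 genes 2-fold or more lower, against 2.48% and 1.95% of all genes. After DT, 2 of 12 were 2-fold or more higher in wild-type mice (median 0.44), against 1.58%, and 3 of 12 in Prestin-hDTR mice (median 0.67), against 2.9%. S100a8 and S100a9, which form the calcium-binding protein calprotectin, lie 22.7 kb apart on chromosome 3 of mm9 and followed the granule genes. S100a8 was at 3.15, 3.81, 1.53 and 2.29, and S100a9 at 4.35, 4.94, 3.01 and 3.70. In Prestin-hDTR mice S100a8 was 3.05-fold lower without and 2.87-fold lower with DT, and S100a9 2.53-fold and 2.36-fold lower. After DT both were between 1.51-fold and 1.68-fold higher in either genotype.

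The chemoattractant receptors did not move as 1 set. Ltb4r1, the receptor of leukotriene B4, was at -3.60, -2.76, -4.90 and -3.35, which is 2.46-fold lower in untreated Prestin-hDTR mice and 2.93-fold higher in them after DT. Fpr1 and Fpr2, receptors of formylated peptides, lie 16.9 kb apart on chromosome 17 of mm9 and differed from each other. Fpr1 was at -4.24, -3.004, -4.18 and -3.08, so that it was within 1.05-fold between the genotypes and higher after DT in both, by 2.35-fold in wild-type and 2.15-fold in Prestin-hDTR mice. Fpr2 was at -3.41, -3.52, -5.09 and -4.87. It was 3.22-fold lower without and 2.55-fold lower with DT in Prestin-hDTR mice, and differed by at most 1.17-fold after DT.

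Retnlg, a resistin-like protein of neutrophils, was at -1.56, -0.01, -2.15 and -1.01. It was 2.92-fold higher after DT in wild-type and 2.20-fold higher in Prestin-hDTR mice, 1.51-fold lower in untreated Prestin-hDTR mice, and lay at the threshold of 2-fold between the DT-treated groups, lower in Prestin-hDTR mice. Padi4, the enzyme that citrullinates histones, was at -3.33, -2.67, -3.57 and -4.04 and was 2.59-fold lower between the DT-treated groups. Its second probe, well above background on 3 arrays, had the opposite sign between the untreated groups, with a log2 ratio of 0.36. Ltb4r1, Fpr1 and Retnlg rose past 2-fold after DT in Prestin-hDTR mice.

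Csf3r, Trem1, Ly6g and Stfa3 gave no clear reading of neutrophils. Csf3r, the receptor of granulocyte colony-stimulating factor, was at 4.82, 4.75, 4.65 and 4.45, and Trem1, an activating receptor of myeloid cells, at -1.25, -1.29, -1.13 and -1.23, so that neither differed by more than 1.23-fold. Their probes, and those of Ly6g and Stfa3, share 20 or more bases with a probe of another gene name, which 8.08% of 21942 probes do. The shared stretch is given for the 3 genes in which it is no plain repeat of 3 letters, read from the probe in its own direction, and all letters are capitals because all are shared.
Csf3r: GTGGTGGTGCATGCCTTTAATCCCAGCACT
Ly6g: CTGTTGCAAGGAAGACCTCTGCAATGCA
Stfa3: GGTTACCAGACTAACAAAACCA
The probes lie at chr4:125721478-125721537 (plus strand), chr15:74989023-74989082 (plus strand) and chr16:36450693-36450752 (minus strand) of mm9. In Trem1 the shared 40 bases are a repeat of the letters TGT found on 4 probes of other genes. Ly6g, the surface protein that defines mouse neutrophils, was at -3.36, -3.07, -3.54 and -2.89 and Stfa3, a stefin, at -3.99, -4.51, -4.73 and -3.90. How far other transcripts add to these 4 probes was not tested. Leaving out these 4 genes was chosen after seeing the data. Without them, the medians of the 8 other mature genes were -0.95 and -1.12 between the genotypes and 0.66 and 0.72 after DT. Of the members, 14 of 23 kept the full order.

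Stfa2, another stefin, ranged only from -4.82 to -4.54. Serpinb1a, an inhibitor of neutrophil proteases that other tissues also make, was at 0.74, 0.44, 0.26 and 0.76 and within 1.42-fold in all comparisons. Mcpt8, a protease of basophils that lies 16.1 kb from Ctsg on chromosome 14 of mm9, was at -5.13 and -4.58 in wild-type mice and not well above background in Prestin-hDTR mice. It was at least 2.39-fold and at least 1.81-fold lower there.

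Other genes of neutrophils, from lists made with earlier results of these data known, moved with the granule genes in part. Of 15 further neutrophil genes, 3 were 2-fold or more lower in untreated Prestin-hDTR mice (median -0.26), against 2.48% of all genes. Chil3, a chitinase-like protein of neutrophils and macrophages, had a log2 ratio of -2.13, 1100001G20Rik (now Wfdc21) of -1.68 and Slpi, a protease inhibitor, of -1.16. Of 14, 5 were 2-fold or more higher in Prestin-hDTR mice after DT (median 0.86), against 2.9% of all genes. Of these 5, Slpi had 2.53 and Lyz2, the lysozyme of macrophages and neutrophils, 2.10. Between the DT-treated genotypes the median over 14 genes was -0.06, with 7 higher and 7 lower in Prestin-hDTR mice. Lyz2 was also 1.30 above DT-treated wild-type mice, where Chil3 was at -1.77. Thus, Chil3 kept the pattern of the granule genes and Lyz2 did not.

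Of 10 genes of the oxidase and of adhesion, 9 were lower in sign in untreated Prestin-hDTR mice, with a median of -0.62. Only 1 was 2-fold or more lower, against 2.48% of all genes. It was Cybb, the catalytic subunit of the NADPH oxidase, at -1.89. In Prestin-hDTR mice 5 of the 10 rose past 2-fold after DT, against 2.9% of all genes, with Ncf4, a cytosolic subunit, at 1.43. Their median over the 10 was 0.92. Between the DT-treated genotypes the median over the 10 was 0.10, with 6 higher and 4 lower in Prestin-hDTR mice. Of 16 chemokines and other recruitment genes 8 were measured. Cxcr2, the chemokine receptor of neutrophils, was above background in DT-treated wild-type mice only, with a bound of 1.11 against untreated wild-type mice, and C5ar1, the receptor of complement C5a, in DT-treated Prestin-hDTR mice only, with a bound of 1.80 against untreated Prestin-hDTR mice. The 7 measured transcription factors of granulocyte development had medians of -0.21 between the untreated and 0.22 between the DT-treated genotypes. In each comparison 2 of the 7, Myb and Gfi1, were past 2-fold. Of all genes, 2.48% were lower and 1.05% higher without DT, and 1.95% lower and 1.52% higher with DT. Cebpa, Cebpd, Runx1 and Irf8 were at 0.22, 0.39, 0.37 and 0.42 between the DT-treated groups. Myb, which acts in precursors, was at -1.21 between the untreated and -1.47 between the DT-treated genotypes. Gfi1, which acts in granulocytes and in hair cells, was at 1.05 and -1.96.

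Markers of other cells of blood and marrow differed between the same arrays. The normalized signals of the 5 primary granule genes summed to 2.83 without and 3.88 with DT in wild-type mice, and to 0.962 without and 1.67 with DT in Prestin-hDTR mice. The 12 measured secondary granule genes, dim signals raised to the floor, summed to 8.19, 14.5, 2.504 and 5.16 in that order. Platelet genes, of which 12 of 13 were measured, had sums of 4.00, 6.14, 2.10 and 3.03. In untreated Prestin-hDTR mice 5 of 11 were 2-fold or more lower, against 2.48% of all genes, with the platelet chemokine gene Ppbp at -4.18. Genes of eosinophils, basophils and mast cells, 9 of 13 measured, had sums of 2.02, 4.46, 1.02 and 1.12. Of the 9, 5 were 2-fold or more lower in untreated Prestin-hDTR mice, against the same 2.48% of all genes. Both lists thus had the order of the granule genes in their sums, which the brightest genes weigh most. Only 7 of the 12 platelet genes and 4 of the 9 others were well above background on all 4 arrays. After DT in Prestin-hDTR mice the eosinophil, basophil and mast cell list had a median log2 ratio of 0.08, with 3 of 6 genes higher and 3 lower.

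Erythroid, B-lineage and osteoblast genes were also lower in Prestin-hDTR than in wild-type mice once both had received DT. Of the 17 erythroid genes 9 were 2-fold or more lower there (median -1.01), as were 8 of 15 B-lineage genes (median -1.01), against 1.95% of all genes. For 9 osteoblast genes the median was -0.69 with 2 lower past 2-fold, against the same share, and Bglap, the bone protein osteocalcin, was at -1.47. Between the untreated genotypes the differences were smaller. Of 17 erythroid genes 10 were 2-fold or more higher in wild-type mice after DT (median 1.30), against 1.58% of all genes. In untreated Prestin-hDTR mice 1 of 14 was lower (median -0.03), against 2.48%, and the erythroid sums were 73.2, 94.4, 86.9 and 94.5. For 15 B-lineage genes the medians were 0.73 after DT in wild-type mice and -0.29 between the untreated groups, where osteoblast genes had -0.19, with B-lineage sums of 5.05, 6.83, 4.86 and 5.23. Of 12 cell cycle genes 10 were measured, and the medians were 1.33 and 1.62 after DT in wild-type and Prestin-hDTR mice. Their part in the changes of the neutrophil genes was not tested. The sums over the 13 cochlear tissue genes were 364, 381, 350 and 375, and so lay within a narrower range than those of the granule genes.

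Monocyte and macrophage genes had another pattern. All 13 measured of 14 were higher in Prestin-hDTR mice after DT, with a median of 0.99, and their sum went from 30.7 to 49.1. Of the 13, 6 were past 2-fold, against 2.9% of all genes. In wild-type mice after DT the median was -0.05, and between the untreated groups it was -0.21, with 0 of 13 past 2-fold in each. Primary granule genes, in contrast, had medians after DT of 0.55 in wild-type and 0.60 in Prestin-hDTR mice. The difference between these lists was not tested, and genes such as Lyz2 and Cybb are made by both kinds of cell.

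**Figure D4:**
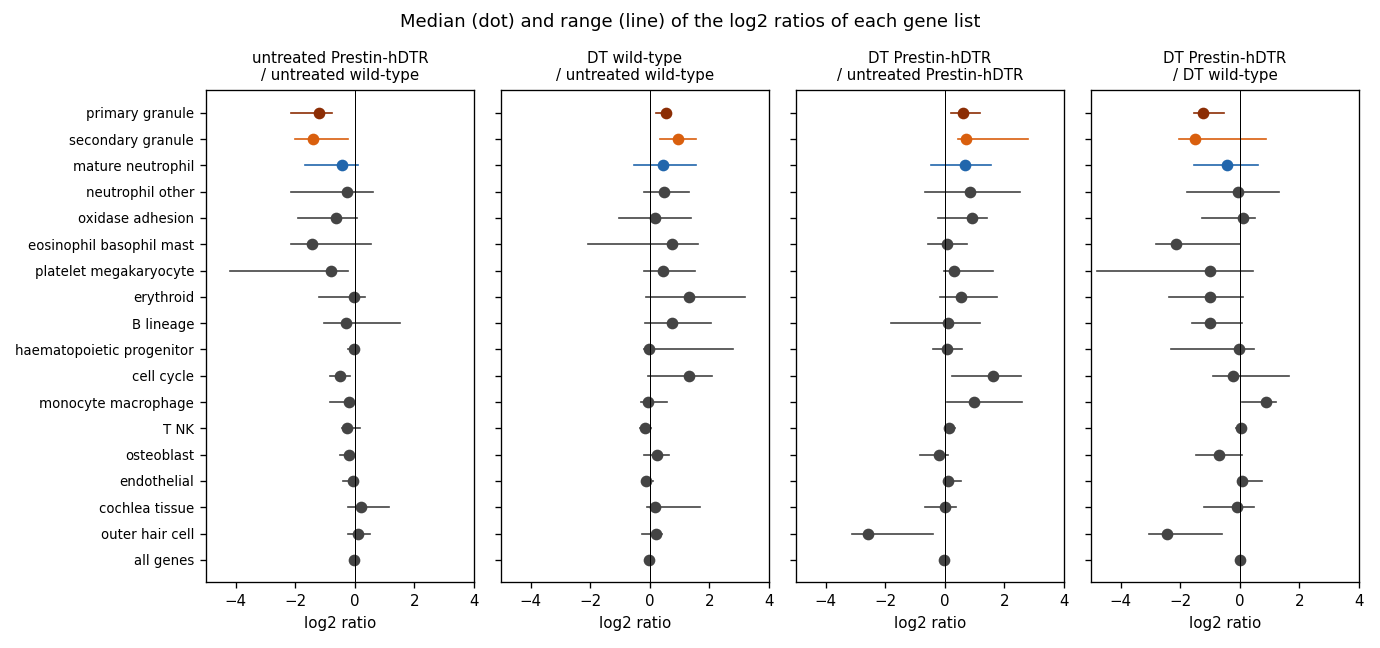
Median (point) and range (line) of the log2 ratios of the 3 groups of neutrophil genes and of other gene lists (rows) in 4 comparisons of 2 arrays (panels), where the row for all genes shows their median only. Primary and secondary granule genes lie with eosinophil, basophil and mast cell genes and with platelet genes on the left in both comparisons of Prestin-hDTR with wild-type mice, erythroid, B-lineage and osteoblast genes join them between the DT-treated groups, and monocyte and macrophage genes rise in the panel of DT-treated against untreated Prestin-hDTR mice.

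The genes outside the 33 whose deviations from their own mean over the 4 arrays lay nearest to the median of the members were ranked by Euclidean distance over 18221 genes. The nearest was Lilra6, a leukocyte immunoglobulin-like receptor, at a distance of 0.265, followed by Myb at 0.345 and Rbm38 at 0.360. The first 10 also held Map4k1, Pou2af1, Plac8, Nfe2, Mrgpra2b, E2f8 at 0.417 and 1 transcript without a gene symbol. This likeness rests on 4 points, each of pooled RNA.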

How the data were processed

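Total RNA of cochleae labelled with Cy3 was measured on Agilent mouse arrays of 44397 features, 1 array of pooled RNA per group, and all 4 arrays shared 1 slide. The deposited intensity of each spot was written by Agilent Feature Extraction 11.5.1.1, as named in the submitters' processing notes, with the local background subtracted and spatial trends removed but arrays not yet scaled to each other. The mean and background signals, deposited as intensity too, were used for normexp (offset of 50) only. The table of processed values that the authors deposited held this intensity over a constant of the array, from 2923.87 to 3364.71, with column medians from 0.0828 to 0.0865. It was linear, and its ratio to the scanner values showed no centring of genes.

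The 1377 control spots and 149 to 228 outlier spots per array were left out, no spot was saturated, and spots of a probe were averaged. A flag held for a probe when it held for over 0.5 of its spots. Intensities were scaled to the 75th percentile of the array, from 2728 to 3162, and log2 was taken. Per gene name, the brightest probe with a detected signal (well above background) on 1 or more arrays was used. Genes detected on neither array of a comparison were left out of it. A dim signal was raised to the lowest detected signal of the array (log2 of -6.39 to -5.44), which makes the fold a bound (at least N-fold), and bounds on the wrong side were dropped. A gene was called at 2-fold or more. With 1 array per group no test was made, and precision is limited by the number of arrays.

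The members, the gene lists and the alternatives were chosen with earlier results of these data known. All members, all genes of 4 lists of neutrophil biology, the furthest gene of other lists and the 10 nearest genes could be named. Probe positions come from the array files (mm9), and promoters are from RefSeq (GRCm38.p6). The arithmetic of the steps was tested on simulated data, which says nothing about how reliable a call is. Python 3.11.15 with numpy 2.4.6, pandas 2.3.3 and matplotlib 3.10.9 was used, and limma 3.58.1 in R 4.3.3 for normexp. Alternatives changed the background correction, scaling, filter, floor, probe, source of the values and threshold.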

Additional observations from a re-analysis of the deposited data

Results flagged for a closer look

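In 4 members the log2 ratio after DT had opposite signs in the genotypes, and the difference was not tested, since each ratio rests on 2 arrays. Stfa3 was at -0.52 in wild-type and 0.83 in Prestin-hDTR mice, a difference of 1.35, and its probe is among those that share bases with a probe of another gene name. Padi4 was at 0.66 and -0.47, a difference of -1.13, and its second probe had the same signs, at 0.56 and -0.67. Serpinb1a was at -0.30 and 0.50, a difference of 0.80. Fpr2 was at -0.11 and 0.22, a difference of 0.34. The spread of 0.101 from repeated spots is that of 1 ratio and not of a difference between 2 ratios. Dim probes can also vary more. Spots of Mmp9 had an SD of 0.21 at a mean intensity of 86.9 in untreated wild-type mice. Fpr2 had an intensity of 88.3 in untreated Prestin-hDTR mice.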

How the results depend on the processing

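Of the medians and counts over the 31 neutrophil genes, 109 values under alternatives stayed within the spread of repeated spots or within 1.5 times the count, 7 moved further and 0 changed sign. With normexp in place of the processed signal, the median log2 ratio of Prestin-hDTR to wild-type mice was -0.84 in the untreated and -0.80 in the DT-treated groups, and 5 genes were 2-fold or more higher in wild-type mice after DT. The count of genes 2-fold or more lower in Prestin-hDTR mice went from 18 to 13 in both comparisons of the genotypes. With genes well above background on all 4 arrays only, the median between the untreated genotypes was -1.10. At a threshold of 1.5-fold, 18 genes were higher after DT in wild-type mice and 17 in Prestin-hDTR mice, and 2 were higher in DT-treated Prestin-hDTR than in DT-treated wild-type mice. For the counts at 1.5-fold and with normexp no share of all genes is given, so they cannot be set against it. Of 948 values of single genes, 66 moved by more than the spot spread and 0 of those at 2-fold changed sign. Of 108 medians of the 3 groups of genes, 17 moved further and 0 changed sign. Leaving out the 4 members with shared probes was chosen after seeing the data and moved none of the medians and counts over all members beyond these limits. It did move the medians of the mature group between the genotypes, from -0.415 to -0.946 without DT and from -0.445 to -1.12 with DT. No paired analysis was possible because each group has 1 array, and no array could be left out.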
